A study of Mus musculus with 9 samples.

Results

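The HIPK kinases (homeodomain-interacting protein kinases) and the DYRK kinases (dual-specificity tyrosine-regulated kinases) were examined in the pressure-overloaded mouse left ventricle. The members were 8 listed genes, Hipk1, Hipk2, Hipk3, Dyrk1a, Dyrk1b, Dyrk2, Dyrk3 and Dyrk4, measured by every probe set that the platform annotation paired with exactly 1 symbol equal to a member. The rule that picks the probe sets uses gene names and no measured value, but the members were chosen with earlier results of these data known. Of the 8 genes, 7 were measured, by 22 probe sets, among 18193 genes and 45037 probe sets in all. Dyrk4 was not analysed here. RNA of the left ventricle of male C57BL/6 mice was hybridised to Affymetrix expression arrays 6 weeks after sham surgery (n = 5 arrays) or transaortic constriction (TAC, n = 4 arrays), an operation that narrows the aorta so that the ventricle pumps against a raised pressure. The labels name no transgene, other allele or drug in either group, give no age, and describe TAC as a way to induce heart failure. They list 1 sample per array and do not say outright that each array is a separate animal, so a p-value here speaks only of the spread among the arrays, which may be technical.

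HIPK and DYRK kinases are neighbouring families of one branch of the kinase tree. Both phosphorylate a tyrosine of their own activation loop while they are being made and afterwards phosphorylate serines and threonines of other proteins, so their activity follows their amount and location more than an upstream kinase cascade. HIPK1, HIPK2 and HIPK3 are mainly nuclear and act on transcription factors and corepressors such as p53 and CtBP. DYRK1A and DYRK1B, the class I DYRKs, act in the nucleus and oppose calcineurin by phosphorylating NFAT factors, whereas DYRK2 and DYRK3, of class II, are largely cytoplasmic. The ventricle was measured as whole tissue, so fewer cells of a type and less RNA per cell cannot be told apart.

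Values are RMA values on the log2 scale, made by the authors, with 1 value per probe set and array. A difference of 1 is a doubling of the measured signal. Levels of different probe sets cannot be set against each other, because probes bind with different strength. For each gene the brightest probe set, the one with the highest mean over the 9 arrays, stood for the gene, and differences are TAC minus sham with the standard error (SE) and 95% confidence interval of the limma fit. A gene or probe set was called when its Benjamini-Hochberg adjusted p, over all genes or over all probe sets, was below 0.05.

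The 4 label check genes Nppa, Nppb, Myh7 and Acta1, which the loaded ventricle is known to raise, were called higher in TAC, by 1.30 to 3.03. Of 6 cardiomyocyte markers, 1 was called lower and none higher, and the mean of that list was 14.10 to 14.11 in sham and 14.02 to 14.04 in TAC. Myh6, Tnnt2 and Myl2 had sham means of 14.52, 14.56 and 14.51, near the highest value on any array, 14.80. Further probe sets of Myh6 and Ryr2 differed by -0.50 and -0.69, and those of Tnnt2 by -1.40 to -0.02. Of these further probe sets, 1 per gene was called lower. Of 5 fibroblast markers 4 were called higher (list mean 10.98 to 11.44 in sham, 12.20 to 12.48 in TAC), and of 5 macrophage markers 4 were called higher (9.13 to 9.67 in sham, 10.06 to 10.22 in TAC). Endothelial markers gave 1 lower call in 4 (list mean 9.63 to 10.16 in sham, 9.66 to 9.89 in TAC), smooth muscle and pericyte markers 2 higher and 2 lower calls in 5 (10.86 to 11.11 in sham, 10.79 to 10.99 in TAC), and atrial markers 1 higher call in 3 (5.87 to 6.23 in sham, 5.89 to 6.44 in TAC). The lowest value on any array was 2.25, so a value above 0 does not show that a marker was present. The atrial markers Sln and Myl7 were dim, with means of 4.47 and 5.44 in sham and 4.29 and 5.85 in TAC. The part of these shifts in the values of the kinases was not tested. Sham replicate 2 stood apart, with correlations of 0.987 to 0.993 to the other sham arrays, which correlated at 0.995 to 0.997 with each other. Sham replicate 5 had the highest 3' minus 5' difference of the control probe sets, a measure that grows as RNA degrades. It was 1.16 there, within 0.901 to 1.16 over the sham arrays and 0.902 to 0.929 over the TAC arrays.

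At the gene level, 1 of the 7 measured kinase genes was called, against 25.1% of all genes tested. That gene was Dyrk3, which was higher in TAC by 0.39, a 1.31-fold difference (95% confidence interval 1.10 to 1.55). Over all genes, 12.8% were called higher and 12.3% lower. The Hipk genes gave 0 of 3 calls in limma, 0 at an unadjusted p below 0.05 and 0 with limma's trend and robust options. Among all genes, 6519 of 18193 had an unadjusted p below 0.05 and 5006 were called with those options. Over the 7 genes, 4 differences were above 0 and 3 below, with a median of 0.01, beside a median of -0.00 over all genes. The intervals of the 6 genes that were not called ran from 0.802-fold at the lowest bound, for Dyrk1b, to 1.23-fold at the highest, for Hipk3.

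**Figure D1:**
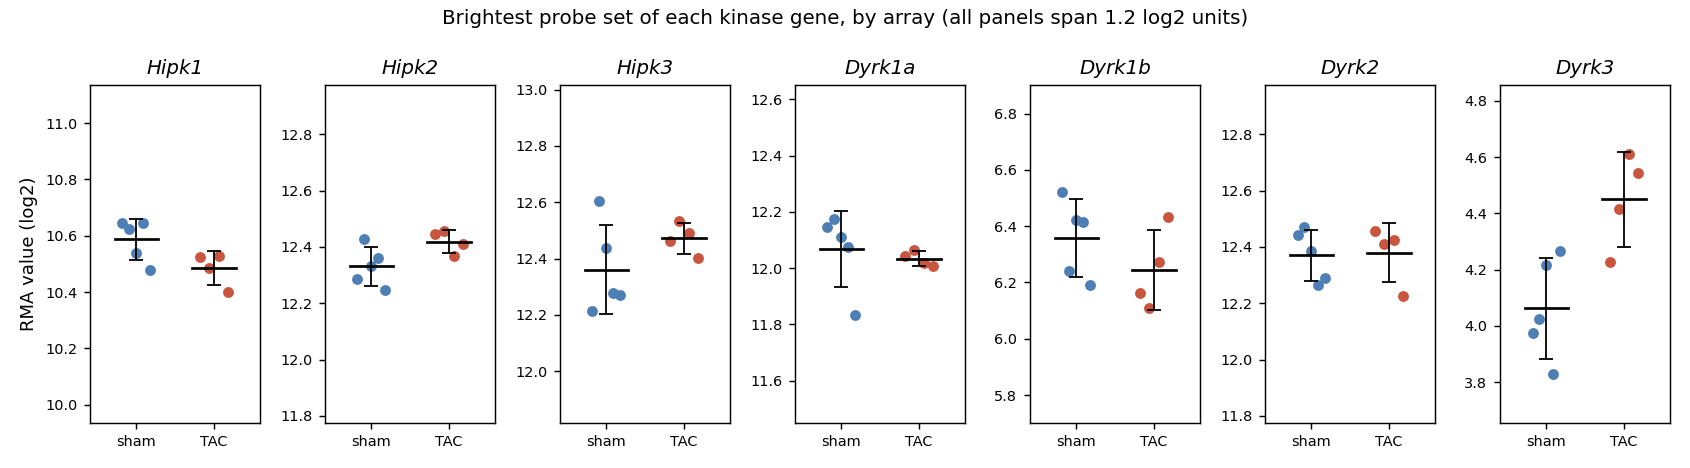
The RMA value (log2) of the brightest probe set of each of the 7 kinase genes on each array, sham (n = 5) and TAC (n = 4). Points are arrays, the long line is the group mean and the bars are 1 SD. Every panel spans 1.2 log2 units, and only Dyrk3 was called, with 3 of its 4 TAC values above all sham values.

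DYRK3 is a kinase that dissolves membraneless condensates such as stress granules and splicing speckles. Its only probe set, 1424229_at, read 3.97, 4.02, 4.22, 3.83 and 4.27 in sham replicates 1 to 5 and 4.23, 4.41, 4.61 and 4.54 in TAC replicates 1 to 4. Of the 4 TAC arrays, 3 were above every sham array, and TAC replicate 1 lay among the upper sham values, so the groups overlapped. The sham mean was 4.06 ± 0.18 (SD, n = 5) and the TAC mean 4.45 ± 0.17 (SD, n = 4), and the difference of 0.39 (SE 0.11, 95% confidence interval 0.14 to 0.63) had an adjusted p of 0.0258 in limma over all genes. The call was lost when sham replicate 1, sham replicate 4 or any 1 of TAC replicates 2, 3 and 4 was left out, with adjusted p-values over the 9 such fits of 0.0178 to 0.0844 and differences of 0.33 to 0.46. In the fit over all probe sets, where its adjusted p was 0.0364, it was also lost without sham replicate 2. In the gene fit without that array, which stood apart, the difference was 0.38 (adjusted p = 0.0392 in limma). The probe set is dim: its mean over all arrays is 4.24, in a range of the table from 2.25 to 14.80.

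The 250 bases before the annotated start of Dyrk3, the one kinase gene that was called, are shown beside those before the first of 2 listed starts of Hipk2, the kinase that the series title names and that was not called. They come from RefSeq (build GRCm38.p6, both genes on the minus strand), chr1:131138235-131138484 for Dyrk3 and chr6:38876191-38876440 for Hipk2, and read 5′ to 3′ along each gene. Capitals mark 2 motifs on either strand: the GC box GGGCGG, bound by SP-family factors, and GGAAA, the core bound by NFAT factors. The GC box overlaps itself in Hipk2, where neighbouring boxes share bases.
Dyrk3 promoter: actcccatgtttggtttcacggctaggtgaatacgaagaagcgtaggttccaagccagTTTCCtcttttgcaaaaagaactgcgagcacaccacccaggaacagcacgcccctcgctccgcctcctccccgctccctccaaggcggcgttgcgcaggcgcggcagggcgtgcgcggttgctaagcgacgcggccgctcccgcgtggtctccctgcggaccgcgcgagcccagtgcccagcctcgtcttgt
Hipk2 promoter: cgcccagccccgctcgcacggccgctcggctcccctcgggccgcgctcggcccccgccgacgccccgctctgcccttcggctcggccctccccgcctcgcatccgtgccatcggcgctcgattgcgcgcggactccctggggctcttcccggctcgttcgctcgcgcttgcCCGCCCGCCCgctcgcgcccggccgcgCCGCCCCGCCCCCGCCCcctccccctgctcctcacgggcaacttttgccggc
The Dyrk3 window held 0 GC boxes, 1 NFAT core and 27 CpG dinucleotides, with 64.8% G and C. The Hipk2 window shown held 5 GC boxes, 0 NFAT cores and 43 CpG dinucleotides, with 80.8% G and C. The window before the second Hipk2 start, chr6:38837312-38837561, held 0 GC boxes, 1 NFAT core and 1 CpG dinucleotide, with 52.8% G and C, so the letters that set Hipk2 beside Dyrk3 depend on the start. Among 32851 windows of the same length in the table, 32.7% held a GC box and 55.6% an NFAT core, and the median content of G and C was 52.4%. None of the 3 windows held CCAAT (33.8% of all windows), the AP-1 letters TGACTCA or TGAGTCA (4.46%), the E-box CACGTG (6.02%) or the CRE TGACGTCA (1.55%), searched on both strands. Each listed window of Hipk1, which was not called, also held 0 GC boxes and 1 NFAT core. The windows of the uncalled Hipk3, Dyrk1a, Dyrk1b and Dyrk2 held 0 to 4 GC boxes and 0 to 2 NFAT cores. These matches describe the letters of the windows only.

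HIPK2 phosphorylates p53 and marks corepressors for degradation. Its brightest probe set, 1428433_at, read 12.29, 12.43, 12.33, 12.36 and 12.25 in sham replicates 1 to 5 and 12.44, 12.46, 12.37 and 12.41 in TAC replicates 1 to 4. The TAC arrays lay in the upper part of the sham range or just above it, and the groups overlapped. In fold terms the interval of the difference ran from 0.968 to 1.17, and the adjusted p was 0.338 in limma. The other 7 probe sets of Hipk2 did not share a direction, with 3 differences below and 3 above 0 before the dimmest one is counted. The probe sets 1424863_a_at, 1425983_x_at and 1448631_a_at differed by -0.10, -0.12 and -0.09, and 1456022_at, 1429566_a_at and 1424864_at by 0.07, 0.07 and 0.18 (adjusted p of the 6 over all probe sets 0.399 to 0.720 in limma). Without sham replicate 2, its lowest array, the difference of 1424864_at was 0.044, and that of 1429566_a_at was 0.035.

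The dimmest Hipk2 probe set, 1432523_at, stood apart from the other 7. It read 5.77, 5.15, 5.02, 5.40 and 4.83 in sham and 4.47, 4.77, 4.70 and 4.86 in TAC. Of the 4 TAC values, 3 were below every sham value, and the sham values spread more widely than the TAC values (5.23 ± 0.36 SD, n = 5, against 4.70 ± 0.17 SD, n = 4). The difference of -0.53 (SE 0.17, 95% confidence interval -0.91 to -0.15) had an adjusted p of 0.0564 over all probe sets in limma. With limma's trend and robust options the same difference had an adjusted p of 0.0439, and without sham replicate 5 it was -0.63 with an adjusted p of 0.0260. Leaving out each array in turn gave -0.63 to -0.40 for this probe set, with adjusted p-values of 0.0260 to 0.156 in limma. Its difference from the brightest Hipk2 probe set, taken within each array, was -0.62 (SE 0.18, adjusted p = 0.0588 in limma over all such pairs).

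HIPK1, a close relative of HIPK2 that also acts on p53, was measured by 3 probe sets. The brightest, 1424540_at, read 10.65, 10.62, 10.54, 10.64 and 10.48 in sham and 10.53, 10.49, 10.53 and 10.40 in TAC. Only TAC replicate 4 was below all sham values, and the difference of -0.10 (95% confidence interval -0.24 to 0.04, adjusted p = 0.285 in limma) was not called. The dimmest, 1421298_a_at, pointed the other way. It read 4.60, 3.77, 4.28, 4.15 and 4.24 in sham and 4.66, 4.55, 4.46 and 4.66 in TAC, so that sham replicate 1 lay with the TAC arrays and sham replicate 2 far below the rest. Its difference of 0.37 (SE 0.14) had an adjusted p of 0.0974 in limma, and without sham replicate 1 it was 0.47 with an adjusted p of 0.0225. Without sham replicate 2 it was 0.26 with an adjusted p of 0.115 in limma. The probe set 1425988_a_at differed by 0.07 (adjusted p = 0.642 in limma), and by 0.013 without sham replicate 2.

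HIPK3, which can bind the death receptor FAS and phosphorylate its adaptor FADD, had 2 probe sets. The brightest, 1426819_at, read 12.21, 12.60, 12.44, 12.28 and 12.27 in sham and 12.46, 12.53, 12.49 and 12.40 in TAC. All 4 TAC values lay within the sham range, and the difference of 0.11 (95% confidence interval -0.08 to 0.30) had an adjusted p of 0.399 in limma. The second, 1419191_at, read 7.96, 7.27, 7.71, 7.72 and 7.90 in sham and 8.20, 8.19, 8.05 and 8.05 in TAC. Here every TAC value was above every sham value, and the probe set was called higher, by 0.41 (SE 0.13, 95% confidence interval 0.13 to 0.70, adjusted p = 0.0496 in limma over all probe sets). The call was lost on leaving out any 1 of sham replicates 3 and 4 and TAC replicates 1 to 4, where the adjusted p was 0.0742 to 0.124, while the difference was 0.30 to 0.48 in all 9 such fits. Without sham replicate 2, the lowest array here, it was 0.30 (adjusted p = 0.0323 in limma). Averaged over both probe sets, the Hipk3 difference was 0.26 and passed the threshold (adjusted p = 0.00933 in limma). The SE of that average was 0.06, against 0.09 and 0.13 for the probe sets alone. Their deviations from the group means ran in opposite directions (r = -0.83), so the averaged p is not separate evidence from a 2nd agreeing probe set. The dimmer one was the only 1 of the 22 kinase probe sets whose groups did not overlap, against 19.8% of all probe sets.

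Among the class I DYRKs, DYRK1A is the kinase whose extra gene copy in Down syndrome is linked to excess NFAT phosphorylation. Its brightest probe set, 1428299_at, read 12.15, 12.17, 12.11, 12.08 and 11.83 in sham and 12.04, 12.06, 12.02 and 12.01 in TAC. Sham replicate 5 was the lowest array, and the 4 TAC values lay together between it and the other sham values. The difference of -0.03 (95% confidence interval -0.21 to 0.14) had an adjusted p of 0.799 in limma. The other Dyrk1a probe sets, 1451977_at and 1426226_at, differed by 0.27 and 0.11 (adjusted p 0.196 and 0.810 in limma). Without sham replicate 2, the lowest array at 1451977_at and the highest at 1426226_at, they differed by 0.16 and 0.25 (adjusted p 0.259 and 0.461 in limma). Sham replicate 5 also read lowest at 1426226_at, where the sham arrays ran from 7.70 to 9.04 and the TAC arrays from 8.22 to 8.91.

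DYRK1B, also called MIRK, is enriched in muscle and acts on cyclin D and the CDK inhibitor p27. Its single probe set, 1422254_a_at, read 6.52, 6.24, 6.42, 6.42 and 6.19 in sham and 6.16, 6.11, 6.27 and 6.43 in TAC. TAC replicates 1 and 2 were below all sham values and TAC replicate 4 was near the highest of them. The difference of -0.11 (95% confidence interval -0.32 to 0.09) had an adjusted p of 0.433 in limma.

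DYRK2 primes transcription factors such as c-Jun and c-Myc for destruction and forms the scaffold of an E3 ubiquitin ligase. Its brightest probe set, 1428637_at, read 12.44, 12.47, 12.38, 12.27 and 12.29 in sham and 12.46, 12.41, 12.43 and 12.23 in TAC. The ranges coincided almost fully, with a difference of 0.01 (95% confidence interval -0.16 to 0.17, adjusted p = 0.949 in limma). The dimmest of the 4, 1456502_at, was called higher. It read 6.78, 6.35, 6.54, 6.58 and 6.46 in sham and 7.07, 7.05, 6.95 and 6.63 in TAC, so that 3 of 4 TAC arrays were above all sham arrays. Its difference was 0.38 (SE 0.11, 95% confidence interval 0.13 to 0.64, adjusted p = 0.0409 in limma over all probe sets). The call held only without sham replicate 1 or without TAC replicate 4, and in the other 7 fits that left out 1 array the adjusted p was 0.0671 to 0.120, with a difference of 0.33 to 0.48 over all 9. Without sham replicate 2 it was 0.34 (adjusted p = 0.0671 in limma). With limma's trend and robust options its adjusted p was 0.0518. The probe sets 1436918_at and 1457667_x_at differed by 0.10 and 0.24 (adjusted p 0.785 and 0.331 in limma), and by 0.21 and 0.29 without sham replicate 2.

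In all, 3 of the 22 kinase probe sets were called, 1 each of Hipk3, Dyrk2 and Dyrk3 and all higher in TAC, against 17.7% of all probe sets. Without sham replicate 2, 1 of them was called, Hipk3 1419191_at, against 8291 of all 45037 probe sets. Over the 22, which come from 7 genes and share arrays, 15 differences were above 0 and 7 below, from -0.53 to 0.41, with a median of 0.08. Over all probe sets, 21251 were above 0 and 23786 below, with a median of -0.01. An unadjusted p below 0.05 was found for 5 of the 22, 4 higher and 1 lower. Among all probe sets, 13557 of 45037 had one, 6531 higher and 7026 lower. Hipk1 had 0 called probe sets of 3, Hipk2 0 of 8, Dyrk1a 0 of 3 and Dyrk1b 0 of 1.

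**Figure D2:**
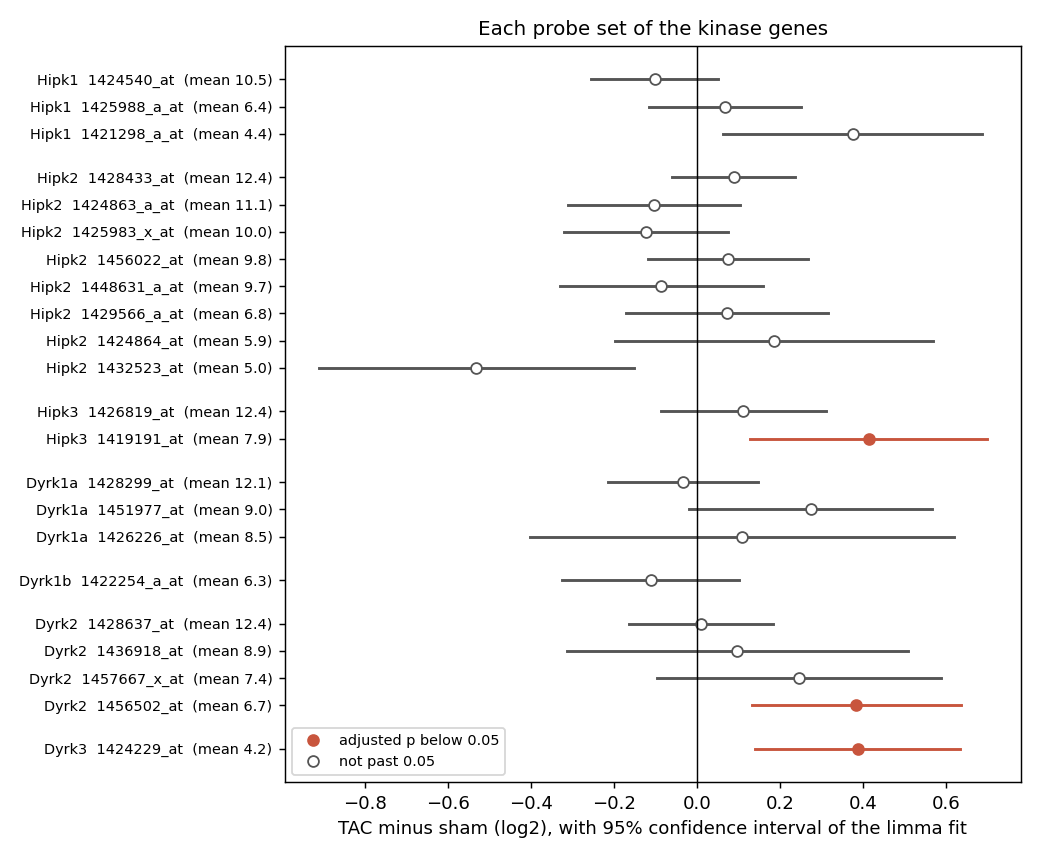
TAC minus sham (log2) of each of the 22 kinase probe sets with its 95% confidence interval from limma, grouped by gene and ordered within a gene from bright to dim (mean over 9 arrays beside the name). Filled red points have an adjusted p below 0.05: Hipk3 1419191_at at 0.41, Dyrk2 1456502_at at 0.38 and Dyrk3 1424229_at at 0.39.

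In each of the 5 genes with several probe sets, at least 1 dimmer probe set had a larger difference between the groups, in size, than the brightest one. Every dimmer one had a larger SE than the brightest, and most genes had several, so this pattern alone does not show that probe sets differ. The 15 within-array differences between a further and the brightest probe set of a gene were tested. None was called in limma, against 8.02% of the 16752 such pairs of all genes. They ranged from -0.62 to 0.48, 3 had an unadjusted p below 0.05 and 0 were called with limma's trend and robust options. Among all pairs, 4009 of 16752 had an unadjusted p below 0.05 and 1267 were called with those options. The smallest adjusted p was 0.0584, for Dyrk2 1456502_at (0.37, SE 0.11), followed by the Hipk2 value given above and by Hipk1 1421298_a_at (0.48, SE 0.15, adjusted p = 0.0858). For Hipk3 1419191_at the within-array difference was 0.30 (SE 0.19, adjusted p = 0.373 in limma) and 0.13 without sham replicate 2, so its call beside an uncalled brightest probe set is not a shown difference between the pair. The suffix _a marks a probe set that can bind several transcripts of a gene and _x one that may also bind other sequences. The sequences and transcript positions of the probes were not used here.

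All 3 called kinase probe sets had a mean below 8. None of the 12 with a mean of at least 8 was called, and their differences were -0.12 to 0.27. Of the 6 with a mean of 6 to 8, 2 were called (differences -0.11 to 0.41), and of the 4 below 6, 1 was called (-0.53 to 0.39). Over all probe sets, 5.82% were called below a mean of 6, 20.2% from 6 to 8, 30.8% from 8 to 10, 33.6% from 10 to 12 and 25.1% at 12 or more. Whether signal that does not come from the named transcript contributes to the dim probe sets was not tested.

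**Figure D3:**
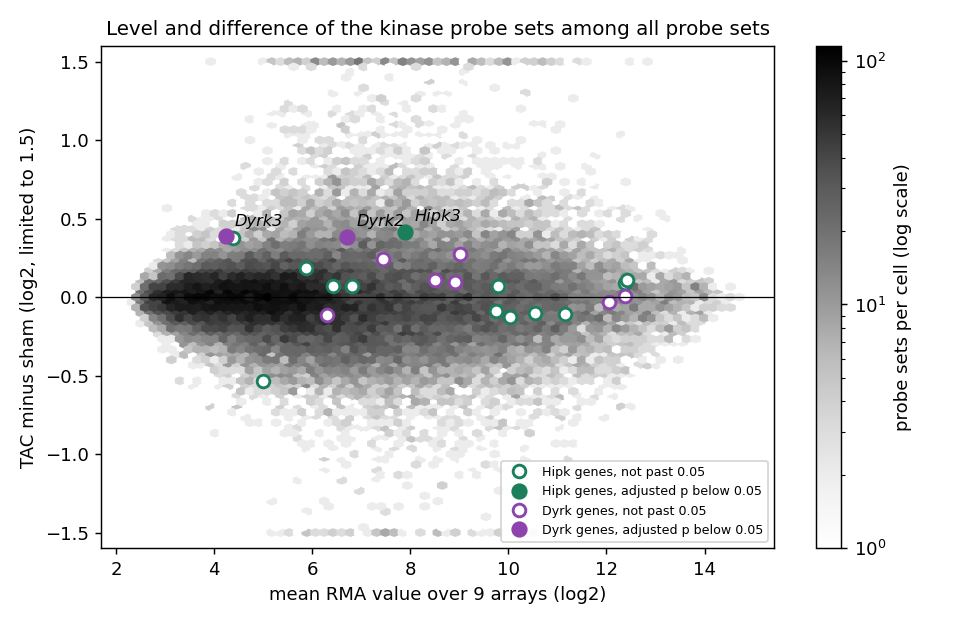
TAC minus sham (log2, limited to 1.5) against the mean RMA value over 9 arrays (log2). Grey cells count all 45037 probe sets on a log colour scale, and rings and filled points are Hipk (green) and Dyrk (purple) probe sets, filled where the adjusted p was below 0.05; the 3 filled points lie at means below 8.

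Probe sets of the same gene did not always vary together among arrays of one group. The correlations that follow are of each array's deviation from its group mean, over 9 arrays that share RNA and array between the probe sets, and are descriptions without a test. Within Hipk2, 1424863_a_at, 1425983_x_at and 1448631_a_at varied together, with r of 0.83 to 0.94. The brightest Hipk2 probe set had an r of -0.79 with 1424864_at, and the pair of Hipk3 probe sets an r of -0.83. The highest r of any pair joined different genes, at 0.96 for Hipk1 1424540_at and Hipk2 1456022_at. Hipk3 1419191_at had an r of 0.88 with Hipk1 1421298_a_at and 0.88 with Hipk2 1424864_at. At these 3 probe sets sham replicate 2 was the lowest array. Dyrk1a 1428299_at and 1426226_at, both lowest in sham replicate 5, had an r of 0.86. Over the 22 probe sets, the SD of the deviations was 0.282 in sham replicate 2 and 0.245 in sham replicate 5, against 0.110 to 0.192 in the other arrays.

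**Figure D4:**
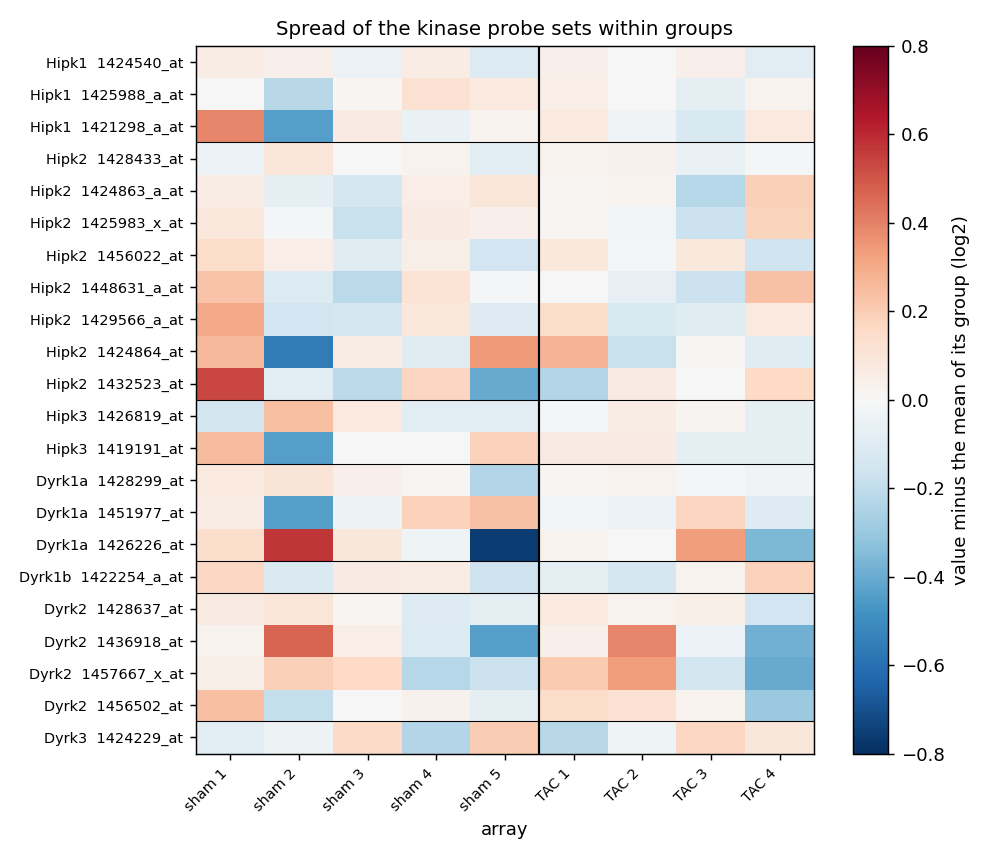
Each kinase probe set's value minus the mean of its group (log2, colour) on each array, sham replicates 1 to 5 and TAC replicates 1 to 4. Sham replicates 2 and 5 carry the deepest colours, with the lowest value at Dyrk1a 1426226_at in sham replicate 5.

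The genes whose values over the 9 arrays were most like those of the brightest Hipk2 probe set were Tc2n (r = 0.942), Gsdme (r = 0.941) and Ncam2 (r = 0.929). Their correlations with Hipk2 in deviations from the group means were 0.907, 0.900 and 0.889. For Dyrk3 they were Oas1b (r = 0.960), Rab29 (r = 0.943) and Rab35 (r = 0.942), with 0.922, 0.847 and 0.861 in deviations. These are the highest of all genes tested once the listed kinase genes are left out, and are given as a description.

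Genes around the kinases were taken from 4 lists. Of 10 measured regulators and scaffolds of 15 listed, such as the ubiquitin ligases that degrade HIPK2 and the DYRK1A scaffold Dcaf7, 1 was called lower and none higher, beside 25.1% of all genes in either direction, and the median difference was 0.10. The one called was Siah1a, a ubiquitin ligase that targets HIPK2. It read 10.91, 11.03, 10.89, 10.82 and 10.65 in sham and 10.46, 10.50, 10.48 and 10.67 in TAC, so that 3 of 4 TAC arrays were below all sham arrays, with a difference of -0.34 (SE 0.08, adjusted p = 0.0151 in limma).

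Of 15 measured HIPK substrates and partners of 17 listed, 1 was called higher and 1 lower, beside 12.8% and 12.3% of all genes, with 12 differences below 0 and a median of -0.10. Ski, a corepressor that HIPK2 binds, was higher by 0.23 (adjusted p = 0.0140 in limma), with 10.94 to 11.06 over the sham arrays and 11.18 to 11.27 over the TAC arrays. Centred on each array's median, the Ski difference was 0.18 (adjusted p = 0.0650 in limma). Tcf7l2, a transcription factor of the Wnt pathway that HIPK2 phosphorylates, was lower (difference -0.59, adjusted p = 0.0137 in limma). Its sham arrays read 9.69, 9.90, 9.62, 9.42 and 9.25 and its TAC arrays 9.06, 9.25, 8.68 and 8.95, and the groups met without overlapping, with TAC replicate 2 next to sham replicate 5.

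The 23 DYRK substrates were all measured, and 4 were called higher and 5 lower, with a median of -0.05; among all genes 12.8% were called higher and 12.3% lower. Rcan1, a calcineurin inhibitor whose transcription NFAT is known to drive and whose protein DYRK1A phosphorylates, rose most. It read 11.72, 11.22, 11.83, 11.73 and 11.99 in sham and 13.30, 13.28, 13.43 and 13.17 in TAC, a gap of more than 1 log2 unit, with a difference of 1.59 (SE 0.14, adjusted p = 2.64e-05 in limma). Ccnd2, the cyclin D2 gene, was higher by 0.72 (adjusted p = 0.000188 in limma) and Stat3, a cytokine-activated transcription factor, by 0.43 (adjusted p = 0.00576 in limma). Nfatc2, an NFAT factor, was lower, with 10.46, 10.40, 10.22, 10.18 and 10.11 in sham and 9.75, 9.70, 9.64 and 10.01 in TAC (difference -0.50, adjusted p = 0.00460 in limma). Its other 5 probe sets differed by -0.03 to 0.21 and none was called. In the mean over its probe sets the Nfatc2 difference was -0.03 (adjusted p = 0.880 in limma). The called genes beyond these 4 were Myc, higher, and Gys1, Cdkn1b, Lin52 and Foxo1, lower. Averaged over their probe sets, Gys1 differed by -0.16 (adjusted p = 0.231 in limma) and Foxo1 by -0.10 (adjusted p = 0.339 in limma), and neither passed. Myc lost its call without sham replicate 1, TAC replicate 1 or TAC replicate 3, and Cdkn1b without sham replicate 3 or 4 or TAC replicate 3 or 4. Lin52 lost it without any 1 of sham replicates 2, 3 and 4 and TAC replicates 1 and 3, and Foxo1 without any 1 array except sham replicate 2 and TAC replicate 4. Without sham replicate 5, 7 substrates were called higher, and without sham replicate 3 or 4 or TAC replicate 3, 2 were called lower. Among all genes, the fit without sham replicate 5 called 4414 of 18193 in either direction, and the others called 3375 to 3917. The transcript of a substrate does not show its phosphorylation, and none of these values measures the activity of a kinase.

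The CLK, SRPK and PRP4 kinases, relatives and fellow kinases of splicing factors, gave 0 of 8 calls in limma, beside 25.1% of all genes. Of the 8 differences 7 were below 0, with a median of -0.16, and 4 had an unadjusted p below 0.05, all lower. Over all genes 6519 of 18193 had one in either direction, and 3259 of 18193 had one and were lower in TAC. With limma's trend and robust options 2 of the 8 kinases were called, and 1 was called without sham replicate 1, sham replicate 2 or TAC replicate 4. Among all genes, 5006 of 18193 were called with those options, and 4209 to 4914 without 1 of those arrays. The smallest p-values belonged to Clk3 (difference -0.22, adjusted p = 0.0611 in limma) and Srpk1 (-0.16, adjusted p = 0.0817 in limma).

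**Figure D5:**
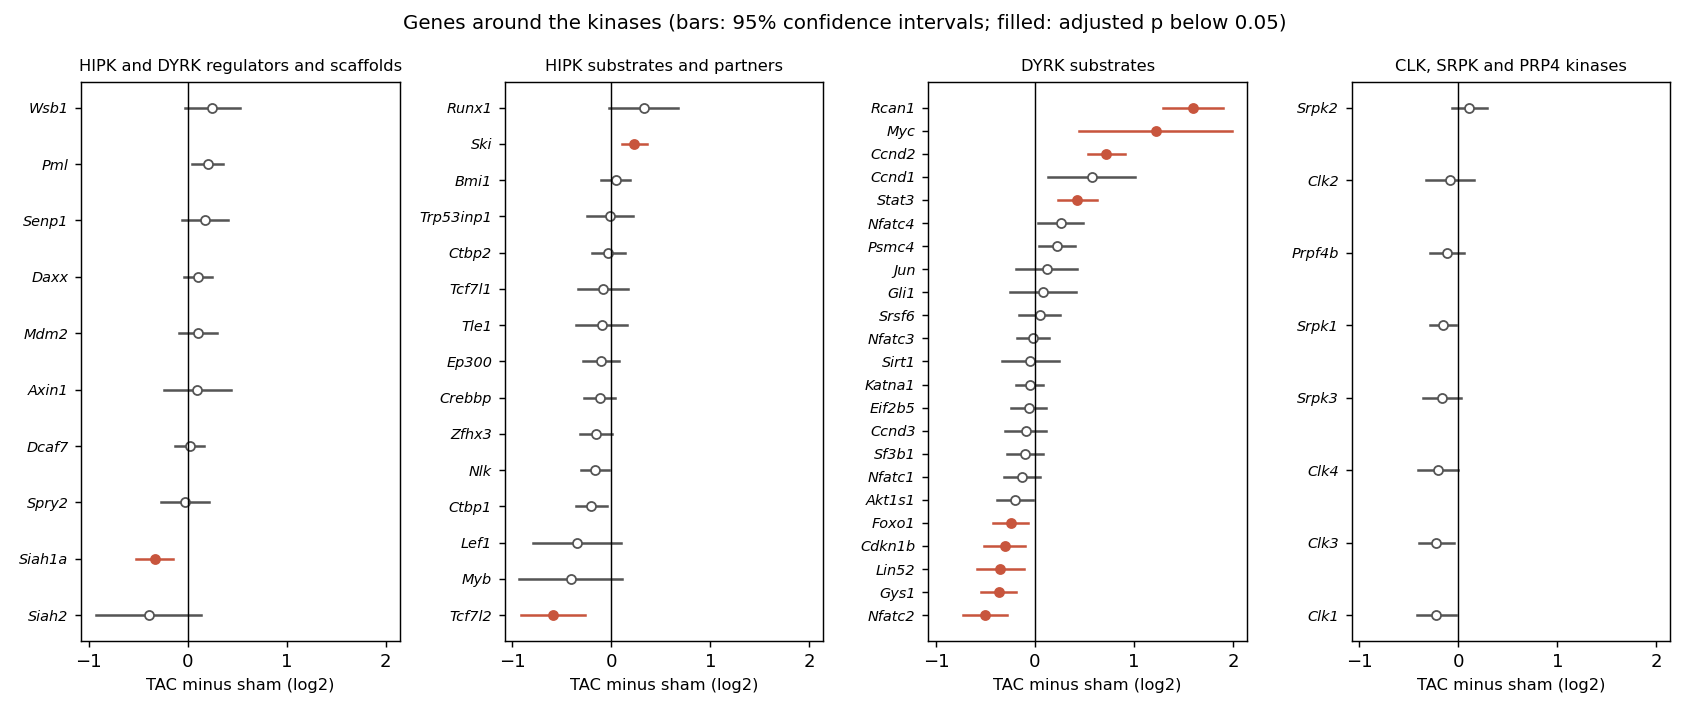
TAC minus sham (log2) of the measured genes of the 4 lists, with the 95% confidence interval from limma, ordered by size. Filled red points have an adjusted p below 0.05 over all genes: 1 of 10 regulators and scaffolds, 2 of 15 HIPK substrates and partners, 9 of 23 DYRK substrates (Rcan1 farthest right at 1.59) and 0 of 8 CLK, SRPK and PRP4 kinases.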

How the data were processed

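The deposited values were log2 expression values per probe set that the authors made with RMA (version unstated), as the submitters' processing notes say. RMA removes probe background, gives all arrays the same distribution and sums up each probe set in 1 value, so a general rise or fall of RNA is not measured; every array had the same median, 6.57. Per the labels' protocols, RNA was isolated from frozen tissue with Trizol, amplified and labelled. No genome build was named. The number of arrays, 5 sham and 4 TAC, limits the precision, and 0 columns were left unmapped.

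Of 45101 probe sets 64 were controls, 34945 of the rest had 1 symbol, 932 several and 9160 none listed; 34741 matched the reference by gene ID. Differences were fitted with limma 3.58.1 under R 4.3.3 (functions lmFit and eBayes, TAC minus sham, two-sided, no covariate, no filter on dim probe sets). The 3 fits covered 18193 genes (brightest probe set each), 45037 probe sets, and 16752 within-array differences of a further probe set from the brightest. The fit was tried on simulated probe set values and on simulated differences drawn without correlation between paired probe sets, and not separately at the gene level. Promoter windows and figures were made with matplotlib 3.10.9, numpy 2.4.6 and pandas 2.3.3 under Python 3.11.15.

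The members and gene lists were chosen with earlier results of these data known. All members were named with every probe set, and of each list up to 4 called genes by the smallest p, or the 2 with the smallest p where none was called; the remaining called DYRK substrates were named after their values were seen. For Hipk2 and each called member the 3 genes with the highest Pearson r were named, with all members left out. Other settings were averaging the probe sets of a gene, keeping features above the median level, limma's trend and robust options, array weights, median centring, cyclic loess, a threshold of 0.01 and dropping each array in turn. Their use on the gene lists was chosen after seeing the data.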

Additional observations from a re-analysis of the deposited data

Results flagged for a closer look

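Among 44 groups, each the sham or the TAC arrays at 1 kinase probe set, 1 had an array far from the others by Dixon's test: at Dyrk1a 1428299_at, sham replicate 5 read 11.83, while the next sham array read 12.08. Chance marks about 1 in 20 such groups.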

How the results depend on the processing

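The number of arrays limits the precision, and each of the 3 called kinase probe sets lost its call on leaving out at least 1 array. The number of called kinase genes was 1 in limma, 2 when the probe sets of a gene were averaged (Dyrk3 and Hipk3, the latter at 0.26, adjusted p = 0.00933), 0 above the median level, where Dyrk3 and Dyrk1b were not tested, 0 at an adjusted p below 0.01, where the Dyrk3 difference of 0.39 missed the threshold, and 0 to 1 on leaving out each array. The number of called kinase probe sets, 3 in limma, was 5 with array weights, which added Hipk1 1421298_a_at and Hipk2 1432523_at, 0 at an adjusted p below 0.01 and 0 to 3 on leaving out each array (0 without sham replicate 4, TAC replicate 2 or TAC replicate 3). The number of called within-array differences was 0 in limma, 1 above the median level (Dyrk2 1456502_at), 3 with array weights and 0 to 2 on leaving out each array (2 without sham replicate 1, 1 without sham replicate 5). Among all genes, 4565 of 18193 were called in limma, 4385 when averaged, 4124 of 9096 above the median level and 2608 at 0.01. Among all probe sets, 7987 of 45037 were called in limma, 10760 with array weights and 4129 at 0.01. Among all pairs, 1344 of 16752 were called in limma, 844 of 8376 above the median level and 2372 with array weights. Leaving out each array gave 3375 to 4914 genes, 5353 to 8291 probe sets and 639 to 1425 pairs. On leaving out each array the Dyrk3 difference was 0.33 to 0.46.

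Signs turned only among differences that were not called. Averaging the probe sets of a gene gave 0.11 for Hipk1, -0.054 for Hipk2 and 0.12 for Dyrk1a. Centring on the median, which moves the median of all genes from -0.00 to -0.05, gave -0.042 for Dyrk2, and array weights gave 0.017 for the within-array difference of Hipk2 1456022_at. Leaving out each array gave -0.017 to 0.060 for Dyrk2 as a gene and at its probe set 1428637_at, -0.083 to 0.25 for Dyrk1a 1426226_at and -0.034 to 0.23 for Dyrk2 1436918_at. For within-array differences it gave -0.033 to 0.18 for Dyrk2 1436918_at, -0.061 to 0.035 for Hipk2 1456022_at, -0.077 to 0.072 for Hipk2 1429566_a_at and -0.069 to 0.20 for Hipk2 1424864_at. The cause was not tested. In the lists, called HIPK substrates were 1 higher and 1 lower, against 2 and 3 when probe sets were averaged, 0 and 3 with median centring, 2 and 2 with array weights and 0 and 0 at 0.01. Called DYRK substrates on the lower side were 5, against 2 when averaged or at 0.01 and 3 with cyclic loess. Called CLK, SRPK and PRP4 kinases were 0, against 4 lower with array weights and 3 above the median level. Among all genes, 4385 of 18193 were called in either direction when averaged, 4885 with median centring and 5941 with array weights. With cyclic loess 4700 were called, at 0.01 2608, and above the median level 4124 of 9096. No paired analysis was possible because the labels give nothing that pairs a sham array with a TAC array. They give no replicate numbers either, and those used here follow the order of the arrays within each group in the series.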
